A study of Drosophila melanogaster with 40 samples.

Results

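Of 2614 regions bound by dPCIF1 in early Drosophila embryos, 564 (21.6%) carried no HIRA peak. A dPCIF1 region was the joined span of a peak from each replicate list whose shared stretch made up at least 20% of each of them. A region was called HIRA-free when no peak of either HIRA list touched it by 1 bp. Another 496 regions had a peak in 1 HIRA list, and 1554 had a peak in both, which are called HIRA-overlapped regions here. The regions were thus chosen by the measured dPCIF1 and HIRA peak positions, so that their overlap, and the width that goes with it, are described and not tested.

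The data were chromatin immunoprecipitation sequencing (ChIP-seq) peak lists from Drosophila melanogaster embryos aged 0.5 to 1.5 h, which asked where these proteins sat around the time the zygotic genome is first transcribed. Wild-type embryos gave lists for dPCIF1, HIRA, RNA polymerase II phosphorylated at serine 5 (Pol II-Ser5P), GAF and Zelda. GAF and Zelda were also mapped in embryos labelled M-Z+ dPCIF1 mutant, whose mothers lacked functional dPCIF1, so that the maternally supplied protein was missing. Each of these 7 groups had 2 biological replicates, each made from its own pool of hand-picked whole embryos. A list holds positions without heights, so it says where a peak passed the caller's threshold and not how strong it was, in how many nuclei it occurred, or how deeply the library was sequenced. The 2 lists of a group differed in size by less than 1.5 times, from 3547 and 4593 peaks for HIRA to 11661 and 11219 for Pol II-Ser5P.

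dPCIF1 is the fly homologue of PCIF1, the enzyme that methylates the first adenosine of capped messenger RNA in mammals. HIRA is the chaperone that deposits the histone variant H3.3 outside DNA replication. GAF, which binds GAGA repeats, and Zelda, which binds CAGGTA and related elements, are pioneer factors that open chromatin when the embryo begins to transcribe its own genes. Pol II-Ser5P marks polymerase that has initiated and lies near promoters.

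The sequences of a few HIRA-free regions show the kinds of element found in them. They are the plus strand of dm6, read from the RefSeq assembly, with motif letters in capitals (in the windows of 30 bases, only the motif named for that window). The motifs searched on both strands were GAGAG (GAF), CAGGTA (Zelda), TATCGATA (the DNA replication-related element), GGTCACACT (core promoter motif 1), TATAAA (the TATA box), CAGCTG (an E-box) and CGATA, which also lies inside TATCGATA. The first set shows the 30 bases around TATCGATA (Rpt5) or GGTCACACT (ATPsynD and Zn72D, in reverse complement) at promoters with Pol II-Ser5P in both lists and no GAF or Zelda peak in any list. Rpt5 encodes a proteasome ATPase (chr3R:23752820-23752849), ATPsynD a subunit of ATP synthase (chr3R:19094883-19094912) and Zn72D a zinc finger protein whose start site lies beside that of Taf4 (chr3L:16112370-16112399).
Rpt5: tcgctgtcacTATCGATAagcgccggcgat
ATPsynD: aggcagctgatAGTGTGACCgacccgaggg
Zn72D: gggccggtactAGTGTGACCgcagcgtaat

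The second set shows 50 bases to either side of the midpoint at regions with GAF in all 4 GAF lists. Hsp70Bc is a heat shock gene (chr3R:12508934-12509034) and ct a homeodomain transcription factor gene (chrX:7604722-7604822). The ct region lies 3656 bp upstream of the start site, and the Hsp70Bc one 92 bp upstream. Both hold several copies of GAGAG, on both strands in the Hsp70Bc window and on the plus strand in the ct window. Hsp70 copies are nearly identical and the authors kept only uniquely mapped reads, so a call there is uncertain.
Hsp70Bc: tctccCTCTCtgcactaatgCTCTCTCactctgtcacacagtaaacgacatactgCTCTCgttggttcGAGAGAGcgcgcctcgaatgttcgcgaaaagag
ct: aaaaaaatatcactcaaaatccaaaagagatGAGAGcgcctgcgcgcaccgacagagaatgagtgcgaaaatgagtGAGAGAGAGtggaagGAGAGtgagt

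The third set sets a Zelda-bound window beside a region with no peak in any of the 10 other lists. The window nearest to hb, a gap gene, shows CAGGTA in a region with Zelda in both wild-type lists (chr3R:8690963-8690992). The Trim9 window (chr2L:10546771-10546871), in an intron of this ubiquitin ligase gene, holds none of the motifs.
hb: taaagtcatagtCAGGTAtaataataataa
Trim9: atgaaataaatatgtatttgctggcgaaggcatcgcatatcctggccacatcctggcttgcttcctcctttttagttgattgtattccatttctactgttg

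HIRA-free regions were narrow. Their median width was 517 bp, with a range of 261 to 2489 bp, against 579 bp where 1 HIRA list had a peak and 819.5 bp where both had. The distance to the nearest HIRA peak had a median of 4947.5 bp, with 109 regions (19.3%) within 1000 bp and 199 (35.3%) over 10000 bp away. Just inside the rule, the nearest HIRA peaks lay 20 bp from the Svil region, 114 bp from a Pli region and 131 bp from the gogo region. Just outside it, HIRA peaks covered 81 bp of the fs(1)h region, 99 bp of the Aldh-III region and 108 bp of the Muc68E region, summed over the 2 lists. In the single dPCIF1 lists, 1501 of 4191 peaks (35.8%) and 1293 of 3687 (35.1%) had no HIRA peak, a larger share than among the replicated regions.

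Polymerase was found at most HIRA-free regions, at a lower share than at dPCIF1 regions as a whole. The first Pol II-Ser5P list overlapped 480 of the 564 regions (85.1%) and the second 479 (84.9%). A peak in both lists was present at 458 regions (81.2%, exact 95% binomial interval 77.7 to 84.3%), beside 94.2% of all dPCIF1 regions and 98.5% of the HIRA-overlapped ones. The 2 lists differed from each other by far less than the HIRA-free regions differed from the HIRA-overlapped ones. Regions are not replicates of a condition, so no test was run over them, and the interval covers counting error only. The 63 regions with no Pol II-Ser5P peak in either list lay at a median of 6694 bp from the nearest one, and 10 of them lay within 1000 bp.

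GAF was the factor in which HIRA-free regions divided most evenly. The wild-type GAF lists overlapped 317 (56.2%) and 319 (56.6%) of them, and both lists did so at 306 (54.3%), beside 67.1% of all dPCIF1 regions and 76.5% of the HIRA-overlapped ones. In the mutant lists the numbers were 317 (56.2%) and 292 (51.8%), with both lists at 289 (51.2%), beside 66.6% and 77.0%. Regions with a peak in 1 HIRA list had a GAF share like that of the HIRA-free ones, at 52.0% in both wild-type lists.

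Zelda was rare. The wild-type lists overlapped 86 (15.2%) and 73 (12.9%) HIRA-free regions, and both lists did so at 58 (10.3%), beside 38.9% of all dPCIF1 regions and 55.8% of the HIRA-overlapped ones. In the mutant the lists overlapped 96 (17.0%) and 86 (15.2%) regions, with both at 72 (12.8%), beside 44.8% and 62.9%. In all 4 Zelda lists the HIRA-free share was below the share at regions with a peak in 1 HIRA list, which ran from 24.4% to 30.8%, and that in turn was below the share at HIRA-overlapped regions.

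**Figure D1:**
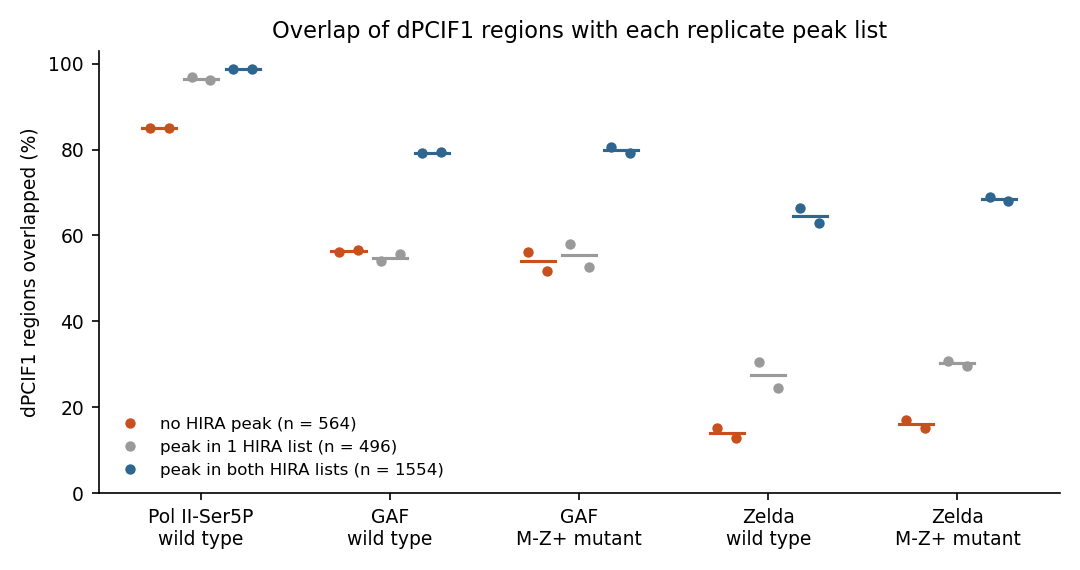
Percent of dPCIF1 regions overlapped by each replicate peak list (y axis), by factor and genotype (x axis); points are the 2 lists of a group, the short line is their mean, and colours give HIRA-free regions, regions with a peak in 1 HIRA list and regions with a peak in both. The HIRA-free regions sit lowest for Pol II-Ser5P (85.1% and 84.9%) and for Zelda (12.9% to 17.0% over both genotypes), and beside the regions with 1 HIRA list for GAF.

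Sorted by the wild-type factors present in both lists, 216 HIRA-free regions (38.3%) had Pol II-Ser5P alone and 189 (33.5%) had Pol II-Ser5P with GAF. A further 77 (13.7%) had GAF alone, a combination seen at 5 of 1554 HIRA-overlapped regions (0.322%). Alone here means that no other factor had a peak in both of its lists, and some of these regions had a peak in 1 list. Of the 306 HIRA-free regions with GAF in both wild-type lists, 49 had no Pol II-Ser5P peak in either list. The trio of Pol II-Ser5P, GAF and Zelda, the most frequent combination at HIRA-overlapped regions (47.0%), was present at 35 HIRA-free regions (6.21%). No factor in both wild-type lists was found at 24 regions (4.26%), and Zelda alone at 0. Over all dPCIF1 regions, Pol II-Ser5P alone stood at 24.8%, Pol II-Ser5P with GAF at 31.5% and GAF alone at 3.67%. All 3 factors stood at 31.4% there, no factor at 1.22% and Zelda alone at 0.459%. The HIRA-free regions with GAF alone lay at a median of 15051 bp from a HIRA peak, and those with all 3 factors at 1240 bp.

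**Figure D2:**
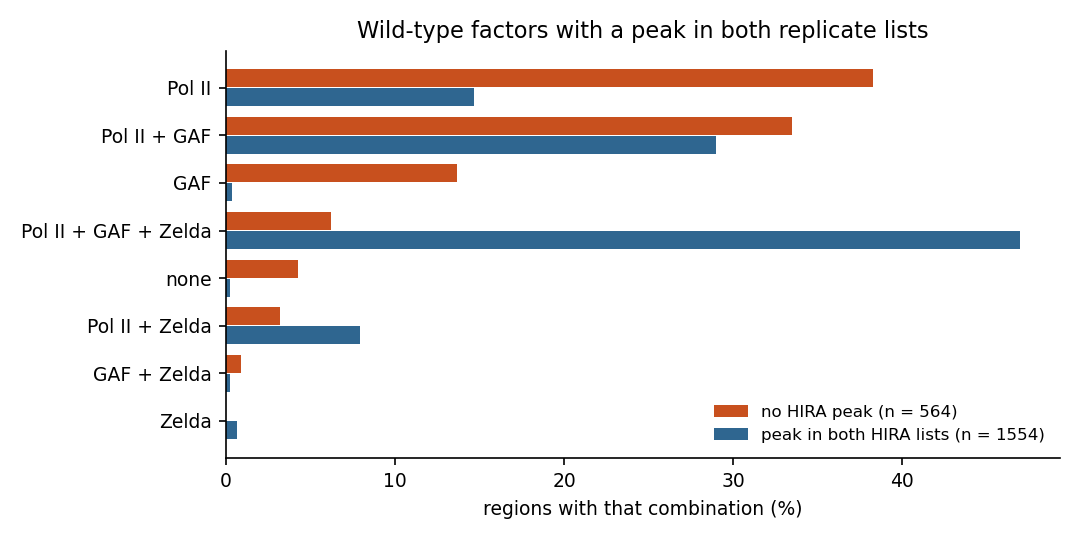
Percent of HIRA-free regions (n = 564) and HIRA-overlapped regions (n = 1554) with each combination of wild-type factors, where a factor counts when both of its replicate lists had a peak. Bars start at 0. Pol II-Ser5P alone (38.3%) and GAF alone (13.7%) were more frequent among HIRA-free regions, and all 3 factors together more frequent among HIRA-overlapped ones (47.0%).

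A wider region has more room for a peak, and HIRA-free regions were narrower, so the shares were also compared within width classes. Pol II-Ser5P in both lists was found at 75.4% of 256 HIRA-free regions under 500 bp, 84.3% of 255 from 500 to 1000 bp and 94.3% of 53 over 1000 bp. The HIRA-overlapped regions of the same classes stood at 92.6%, 99.5% and 100%. For GAF in the wild type the HIRA-free shares were 47.3%, 59.2% and 64.2%, against 59.0%, 74.2% and 87.5%. For Zelda they were 8.98%, 11.8% and 9.43%, against 48.8%, 51.0% and 65.2%. The HIRA-free share was thus below the HIRA-overlapped one for each factor in each width class. Regions with a peak in 1 HIRA list stood at 43.6%, 50.8% and 74.7% for GAF in the wild type. These GAF shares were below the HIRA-free ones up to 1000 bp and above them in the widest class. For Pol II-Ser5P and Zelda, the regions with 1 HIRA list lay above the HIRA-free ones in each class. In the mutant, Zelda in both lists stood at 11.7%, 13.3% and 15.1% of the HIRA-free regions of these classes.

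**Figure D3:**
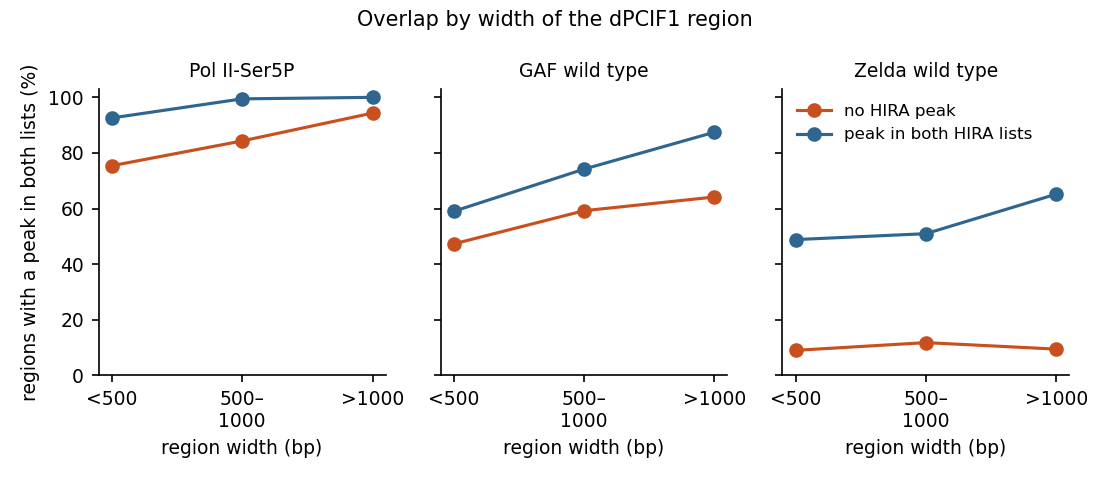
Percent of regions with a peak in both wild-type lists of Pol II-Ser5P, GAF and Zelda (y axis) in 3 classes of dPCIF1 region width (x axis, bp), for HIRA-free and HIRA-overlapped regions. The HIRA-free points lie below the HIRA-overlapped ones in each class, most widely for Zelda (8.98% against 48.8% under 500 bp).

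Most HIRA-free regions lay at gene starts. A transcription start site (TSS) within 1 kb was found for 445 regions (78.9%), beside 82.4% of all dPCIF1 regions and 83.1% of the HIRA-overlapped ones, and 371 regions (65.8%) contained a TSS. The midpoint lay at a median of 119 bp from the nearest TSS, and 332 regions (58.9%) were within 200 bp. The next stretch downstream was thinly filled: 27 regions (4.79%) had their midpoint 200 to 1000 bp downstream, against 14.0% of the HIRA-overlapped ones. From 1000 to 3000 bp downstream there were 78 (13.8%), against 5.60%. The midpoint fell in a 5′ UTR for 164 regions, an intron for 175, between genes for 183, a coding exon for 17, a 3′ UTR for 19 and a non-coding exon for 6.

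**Figure D4:**
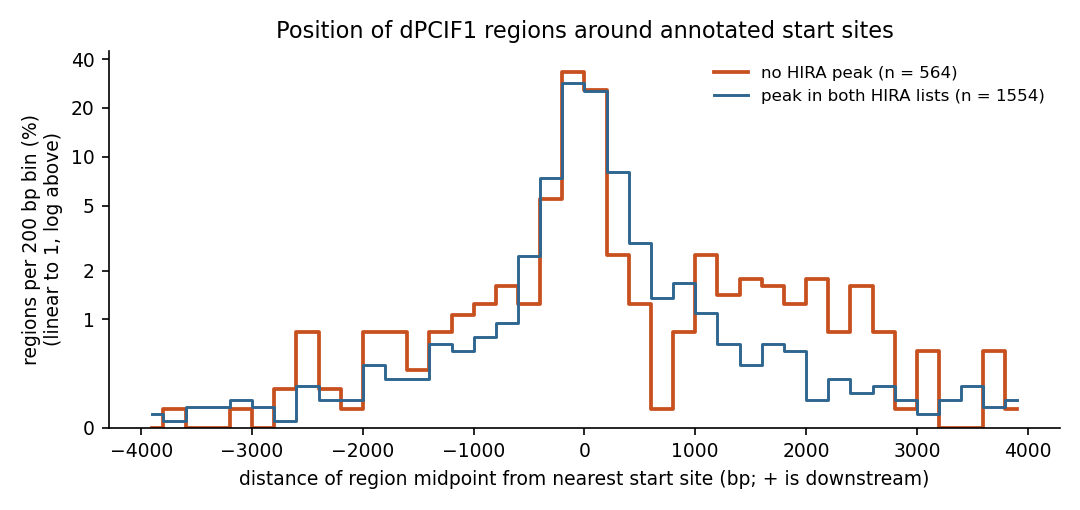
Percent of HIRA-free and HIRA-overlapped dPCIF1 regions per 200 bp bin (y axis, linear up to 1 and logarithmic above) by the distance of the region midpoint from the nearest annotated start site (x axis, bp, positive downstream). Both peak at the start site. The HIRA-free regions are fewer from 200 to 1000 bp downstream (4.79% against 14.0%) and more frequent from 1000 to 3000 bp downstream (13.8% against 5.60%). Regions with a peak in 1 HIRA list (6.05% and 6.25% in these stretches) are not drawn. The 28 HIRA-free regions that lie 4000 bp or more away are not drawn either.

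Width and promoter position ran in opposite ways in the 2 classes. Among HIRA-free regions the share within 1 kb of a TSS was 84.0% under 500 bp, 76.1% from 500 to 1000 bp and 67.9% over 1000 bp. Among HIRA-overlapped regions it was 65.2%, 82.2% and 92.2%. The share with TSSs of both strands within 1 kb was 25.9% for HIRA-free and 33.1% for HIRA-overlapped regions. The order of the TSSs was not checked, so divergent promoters were not told apart from other arrangements, and a wider region searches a longer stretch. The nearest TSS belonged to a protein-coding gene for 539 HIRA-free regions, to a long or other non-coding RNA for 24 and to a pseudogene for 1. It belonged to a small nuclear, small nucleolar or transfer RNA gene for 0 of 564, which allows a share of up to 0.532%, against 30 of 1554 HIRA-overlapped regions (1.93%). The share was 1.26% over all dPCIF1 regions and 0.605% (3 of 496) at regions with a peak in 1 HIRA list, close to that upper limit.

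The promoter share differed with the factors present. It was 87.0% for the 216 regions with Pol II-Ser5P alone, whose midpoints lay at a median of 78.5 bp from a TSS. It was 83.1% for those with Pol II-Ser5P and GAF, 67.5% for those with GAF alone and 57.1% for those with all 3 factors. The 58 regions with Zelda in both wild-type lists lay at a median of 1300.5 bp from a TSS, and 51.7% had a TSS within 1 kb. TSSs of both strands within 1 kb were common at regions with Pol II-Ser5P in both lists and no GAF peak in any of the 4 GAF lists (92 of 200, 46.0%). They were less so at regions with GAF in both wild-type lists (44 of 306, 14.4%). The HIRA-overlapped regions split by GAF in the same direction, at 54.3% of 221 and 28.7% of 1189.

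Motifs within 100 bp of the midpoint followed the factors. GAGAG was present at 51.3% of the 306 HIRA-free regions with GAF in both wild-type lists, and at 63.3% of the 49 of them with no Pol II-Ser5P peak. At the 200 regions with Pol II-Ser5P and no GAF peak it was present at 12.5%, while the promoter elements TATCGATA (7.0%) and GGTCACACT (8.5%) were more frequent there than at the GAF-bound ones (1.63% and 0.654%). CAGGTA was present at 22.4% of the 58 regions with Zelda and at 6.56% of all HIRA-free regions. Windows 2 kb to each side of the HIRA-free regions held GAGAG at 23.8%, CAGGTA at 4.34%, TATCGATA at 0.887% and GGTCACACT at 0.355%. Windows of the same length at 23584 annotated TSSs held them at 24.3%, 4.42%, 5.45% and 3.71%.

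All HIRA-free regions were also set against the HIRA-overlapped ones, in the same window around the midpoint. GAGAG was present at 34.0% against 41%, CAGGTA at 6.56% against 9.78%, TATCGATA at 4.26% against 3.15% and GGTCACACT at 3.72% against 3.35%. TATAAA stood at 21.6% against 18.2%, CAGCTG at 9.93% against 9.59% and CGATA at 29.4% against 27.9%, and windows at all TSSs held these 3 at 26.2%, 12.3% and 34.7%. Over the whole length of the regions, which were wider where HIRA was present, GAGAG was found at 56.9% against 77.4% and CAGGTA at 15.8% against 31.5%. In the window around the midpoint, regions with a peak in 1 HIRA list held GAGAG at 34.9% and CAGGTA at 5.85%, close to the HIRA-free shares. They held TATCGATA at 6.05% and GGTCACACT at 5.44%. A motif match is a string of letters and was not read as a binding site.

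Where polymerase was present, its peak at a HIRA-free region was narrower. The widest Pol II-Ser5P peak that overlapped a region had a median width of 1235 bp in the first list and 1314 bp in the second. At HIRA-overlapped regions it was 2434 bp and 2518.5 bp. A HIRA peak elsewhere under the same Pol II-Ser5P peak was found for 97 of 480 regions (20.2%) and 104 of 479 (21.7%). The widest GAF peaks showed the same difference, at 1238 and 1205 bp in the wild-type lists against 2050 and 1939 bp. HIRA-overlapped regions were wider themselves, and these peak widths were not compared within classes of region width.

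Whether GAF and Zelda changed at HIRA-free regions when maternal dPCIF1 was missing was compared over the lists. The share with GAF was 56.4% ± 0.251 (SD, n = 2) in the wild type and 54.0% ± 3.13 (SD, n = 2) in the mutant. The difference of -2.39 percentage points was smaller than the spread of the mutant lists (two-sided exact permutation test, p = 0.667), and the first mutant list matched the first wild-type list at 56.2%. The share with Zelda was 14.1% ± 1.63 (SD, n = 2) in the wild type and 16.1% ± 1.25 (SD, n = 2) in the mutant, a difference of 2.04 percentage points (two-sided exact permutation test, p = 0.667). The Zelda lists of the genotypes met at 15.2%. With 2 lists a group the smallest p this test can give is 0.333, so no difference could pass 0.05. The second GAF mutant list was the smallest of the 4 GAF lists, with 5222 peaks against 6090 to 6499, and the part of list size in the difference was not tested.

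At HIRA-overlapped regions the share with GAF went from 79.2% to 79.9% and that with Zelda from 64.5% to 68.5%. The genotype difference at HIRA-free regions minus that at HIRA-overlapped ones was -3.07 percentage points for GAF and -1.89 for Zelda. In both cases the 2 mutant lists lay below the 2 wild-type lists, which gives the smallest attainable value (two-sided exact permutation test, p = 0.333). Neither passed 0.05.

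Few HIRA-free regions changed their GAF call in both replicates. GAF was present in all 4 lists at 283 (50.2%, beside 64% of all dPCIF1 regions) and absent from all 4 at 220 (39.0%, beside 24.3%). It was present in both mutant lists and neither wild-type list at 3 (0.532%, beside 0.918%), and in both wild-type and neither mutant list at 13 (2.30%, beside 1.07%). Those 13 were 46.4% of the 28 dPCIF1 regions with that loss. Of the 13, 10 lay within 200 bp of a TSS, and their median width was 409 bp.

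The regions with GAF in the mutant lists and not in the wild-type ones lay near Kr and hb, gap genes that divide the embryo along its length, and at Hsc70-5, a mitochondrial chaperone gene. The Kr region (chr2R:25223566-25224522) lay 2567 bp upstream of the Kr start site in an intron of CG9380, and had Pol II-Ser5P in both lists and Zelda in all 4. The hb region (chr3R:8690530-8691364) was 3653 bp downstream of the hb start site, beyond the gene, with Zelda in 3 of 4 lists. Among the losses, the widest was at lncRNA:CR45643 (616 bp). The gap gene kni also lost the GAF call at a region of 409 bp over its 5′ UTR, where Zelda was present in all 4 lists. Each of the losses named had Pol II-Ser5P in both lists, as did 10 of all 13.

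Zelda was present in all 4 lists at 49 HIRA-free regions (8.69%, beside 35.1%) and absent from all 4 at 431 (76.4%, beside 38.0%). It appeared in both mutant lists alone at 11 (1.95%, beside 3.33%) and in both wild-type lists alone at 3 (0.532%, beside 1.64%). The widest of the 11 were at raskol, which encodes a Ras GTPase-activating protein, at uif and upstream of ct. The ct region had GAF in all 4 lists and no Pol II-Ser5P. The 3 losses lay upstream of dj-1beta, in the 3′ UTR of Kr (chr2R:25228763-25229333) and in lncRNA:Hsromega, a heat-inducible non-coding RNA.

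At the ends of the range, 30 HIRA-free regions (5.32%, beside 28.7%) had a peak in all 10 other lists and 9 (1.60%, beside 0.383%) in none. Of the 30, 18 had their midpoint over 1000 bp from a TSS and 27 lay in introns or between genes. The widest were in introns of rau (1442 bp), an adaptor of receptor tyrosine kinase signalling, and Tl (1179 bp), which encodes the Toll receptor of dorsoventral patterning. Next came regions upstream of Nek2, a cell cycle kinase gene, and downstream of the comm2 start site, an axon guidance gene, and one 309 bp upstream of abd-A, the Hox gene of the abdomen. Of the 9 regions without any other peak, the widest lay in Trim9 (628 bp), Sfp65A, Gba1b, an intron of sra and Pura. The nearest start site to the sra region was that of Bin1, 635 bp away. The 9 accounted for most of the 10 such regions among all 2614.

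The 8 widest HIRA-free regions had Pol II-Ser5P in both lists and no Zelda in any. The widest, 2489 bp (chr2L:13879802-13882290), lay in an intron of CenG1A, which encodes an Arf GTPase-activating protein, with GAF in the first list of each genotype and not in the second. GAF was present in all 4 lists at Vdup1, an arrestin family gene (2448 bp), Or85f, an odorant receptor gene (2138 bp), CG3655 (1737 bp) and CG31230 (1560 bp). It was absent from all 4 at trbd, a deubiquitinase gene (1662 bp), CG46339 (1631 bp) and RhoGEF3 (1599 bp). The GAF calls at these wide regions were thus the same in both genotypes.

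At the level of genes, 633 of 18358 annotated genes (3.45%) had a HIRA-free region within 1 kb of a TSS, and 1982 (10.8%) had a HIRA-overlapped one. Of the 633, 91 (14.4%) had both kinds. The comparison was made for lists of genes by function, which were chosen with earlier results of these data known, so the counts are given without a test. In all, 37 HIRA-free regions lay at genes of these lists, of which 37 had Pol II-Ser5P in both lists, 31 lay within 200 bp of a TSS and 23 had no GAF or Zelda peak in any list. Among all 445 HIRA-free regions with a TSS within 1 kb, 332 (74.6%) lay within 200 bp of one and 373 had Pol II-Ser5P in both lists. The position near a TSS thus followed in part from the 1 kb rule. A region counted for each gene with a TSS within 1 kb, so some lay nearest to the TSS of another gene.

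Genes of the transcription machinery held the largest share among the lists that do not come from the study. Of 47 genes for Pol II and general factors, 8 (17.0%) had a HIRA-free region and 3 (6.38%) a HIRA-overlapped one. They were Polr2F, a polymerase subunit; Taf4, Taf5, Taf8 and Taf12, subunits of TFIID; CycH of TFIIH; and Spt5 and spt4, the partners of the elongation factor DSIF. The regions of Taf4, Taf5, Taf8 and Spt5 lay nearest to the start sites of other genes (Zn72D, Pex6, Mvb12 and Fak). They were counted because a TSS of the listed gene lay within 1 kb. All 8 regions had Pol II-Ser5P in both lists, and 7 had no GAF or Zelda peak in any list. The exception, at the Fak start site within 1 kb of that of Spt5, had GAF in the second mutant list. Of 32 proteasome genes, 4 (12.5%) had a HIRA-free region, namely Prosbeta3, Prosbeta7, Rpn10 and Rpt5, and 3 (9.38%) a HIRA-overlapped one. None of these 4 regions had a GAF or Zelda peak.

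Genes that pattern the early embryo had a HIRA-overlapped region more often than a HIRA-free one, as did all annotated genes (10.8% against 3.45%). Both shares of the gap and pair-rule, dorsoventral and sex determination lists lay above those of all genes, the HIRA-free ones resting on 1 or 2 genes each. HIRA-free regions farther than 1 kb from a TSS, such as those named above near Kr and hb, are not counted here. Of 18 gap and pair-rule genes, 13 (72.2%) had a HIRA-overlapped region and 2 (11.1%), gt and kni, a HIRA-free one. For 22 dorsoventral genes the numbers were 13 (59.1%) and 1 (4.55%), which was vnd. For 9 early sex determination genes they were 5 (55.6%) and 1 (11.1%), which was upd1, a JAK/STAT ligand. The gt, vnd and upd1 regions had peaks in all 10 other lists. Of 12 Hox genes, 2 had a HIRA-overlapped region and 1, abd-A, a HIRA-free one. Of 5 genes that the study named as known GAF targets, 2 (abd-A and kni) had a HIRA-free region and 3 a HIRA-overlapped one. Of 18 germ plasm and maternal clearance genes, 2 (stau and tud) and 3 did.

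Heat shock genes held both kinds, with a HIRA-overlapped region at 8 of 21 (38.1%) and a HIRA-free one at 3 (14.3%), namely Hsc70-3, Hsc70-5 and Hsp70Bc. All 7 genes for pioneer and GAGA-binding factors had a HIRA-overlapped region and 0 a HIRA-free one, and the numbers were 10 and 0 for 30 cellularization and cell cycle genes. They were 5 and 0 both for 15 genes of HIRA, chaperones and H3.3 and for 18 insulator factor genes. Among 86 cytoplasmic ribosomal protein genes, 28 (32.6%) and 5 (5.81%) had such regions, among 75 mitochondrial ones 11 and 3, among 53 translation factor genes 15 and 2, and among 25 Mediator genes 1 and 1 (MED23). Of 16 cap and m6A genes 3 and 1 did, the latter being Ythdf, a reader of N6-methyladenosine. Of 111 histone genes of the repeated cluster, 109 had a HIRA-overlapped region and 2 a HIRA-free one, where near-identical copies make the calls uncertain. The numbers were 15 and 0 for 32 small nuclear RNA genes, 61 and 2 for 269 small nucleolar RNA genes, and 8 and 2 for 312 transfer RNA genes. The 2 transfer RNA genes shared a HIRA-free region whose nearest start site was that of tud. The regions of the 2 small nucleolar RNA genes lay nearest to the start sites of rdgBbeta and RpL10Ab.

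**Figure D5:**
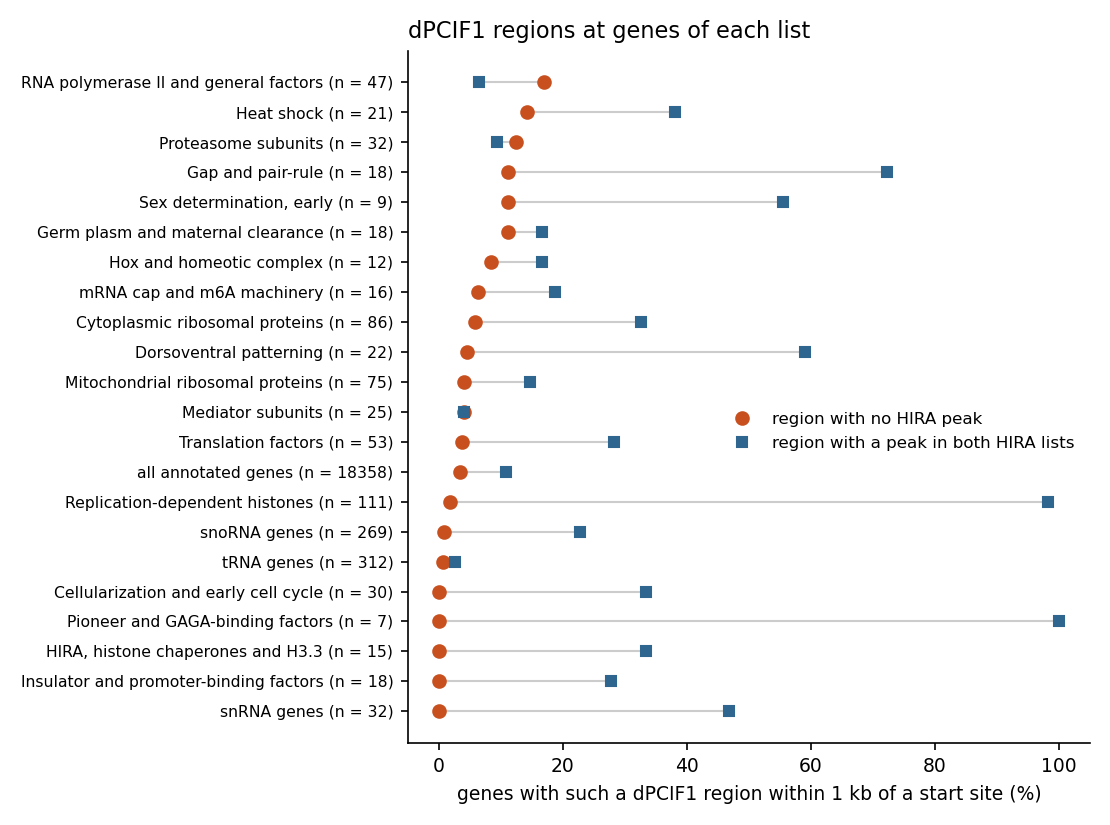
Percent of the genes of each list (x axis) with a HIRA-free dPCIF1 region (circles) or a HIRA-overlapped one (squares) within 1 kb of a start site; rows are gene lists with their number of genes, and a grey line joins the 2 values. Pol II and general factor genes (17.0% against 6.38%) and proteasome genes (12.5% against 9.38%) have the circle to the right, and gap and pair-rule genes (11.1% against 72.2%) have it far to the left.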

How the data were processed

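The authors trimmed reads with Trimmomatic 0.39, mapped them to dm6 with Bowtie2 2.2.5, marked PCR duplicates with sambamba, kept unique alignments of good quality with SAMtools 1.18 and called peaks for each replicate with MACS2 2.2.7.1. The 14 deposited lists give 3 columns a peak (chromosome, start, end), with no score or count, so the depth is unknown and no interval for depth was given. The other 26 of 40 samples were not analysed here. No peak lay beyond the end of a dm6 sequence.

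The groups and replicate numbers came from the sample titles. Overlaps with other lists needed 1 bp. TSSs (23779 of 18358 genes) came from Ensembl release 115, without transposable elements. Overlaps and tests were computed in Python 3.11.15 with numpy 2.4.6 and scipy 1.17.1, and were tested on simulated lists. Genotypes were compared by a two-sided exact permutation test over the 2 lists a group. A share of 0 was given the upper limit that 3 counts allow.

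The regions and gene lists were chosen with earlier results of these data known. Regions are named by the gene of the nearest TSS. The text names the 8 widest regions, the 5 widest with a peak in all or in none of the 10 other lists, the 3 widest of each gain or loss, the 3 on each side of the HIRA rule, and regions at genes of the lists. Some regions that this rule selects, among them GAF losses, are not reported here. Alternatives changed the overlap, extent, width, HIRA rule, chromosomes, promoter flank, motif window and lists used.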

Additional observations from a re-analysis of the deposited data

How the results depend on the processing

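Requiring a replicate overlap of 50% gave a HIRA-free share of 20.7%, a promoter share of 82.8% and a Pol II-Ser5P share of 79.1%, and an overlap of 1 bp gave 81.6% for Pol II-Ser5P and 53.7% for GAF. Cutting regions to the stretch shared by both replicates gave a HIRA-free share of 22.2%, promoters at 76.7%, Pol II-Ser5P at 81.4% and GAF at 53.6%. Removing regions with a HIRA peak within 1 kb gave 17.4%, with promoters at 81.1%, Pol II-Ser5P at 78.9%, GAF at 52.5% and Zelda at 7.91%. Removing only regions with a peak in both HIRA lists gave 40.6%, with promoters at 81.5%, Pol II-Ser5P at 87.8%, GAF at 53.2%, Zelda at 14.1% and no other peak at 0.943%. With dPCIF1 peaks of 500 bp or more, the HIRA-free share was 8.81%, promoters stood at 77.1%, Pol II-Ser5P at 87.2%, GAF at 72.5%, Zelda at 12.8% and no other peak at 0%. There the genotype difference was 0 percentage points for GAF and turned to -0.917 for Zelda, each with p = 1 (exact permutation test). Overlap of 20% of both lengths with the factor gave 58.0% for Pol II-Ser5P, 39.7% for GAF and 10.6% with no other peak. A promoter flank of 500 bp gave 71.6%, leaving out the Y chromosome gave Pol II-Ser5P at 81.3%, and the width classes gave it at 75.4%, 84.3% and 94.3%. The causes of these shifts were not tested.

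Leaving out each of the 14 lists in turn gave ranges of 21.6 to 35.8% for the HIRA-free share, 63.3 to 80.8% for promoters, 74.4 to 86.2% for Pol II-Ser5P, 37.7 to 56.6% for GAF, 6.42 to 15.2% for Zelda and 1.11 to 6.33% for no other peak. The lists that moved these by over 1.5 times were the dPCIF1 ones (HIRA-free share 35.1% without the first and 35.8% without the second, Zelda 6.42% without the first, no other peak 5.72% and 6.33%), the first HIRA list (34.5%) and, for no other peak, the second Pol II-Ser5P list (2.48%). The genotype differences ranged from -4.61 to -0.177 percentage points for GAF and from 0.887 to 3.19 for Zelda, and the differences of differences from -4.55 to -1.12 and from -2.80 to -1.30.

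With the replicate number as a replicate block, the GAF difference stayed at -2.39 points (p = 1) and the Zelda one at 2.04 (p = 0.5, exact sign-flip permutation, smallest attainable 0.5). Same-numbered lists did not deviate together (correlation -0.0714 for GAF and -0.0804 for Zelda over the 564 regions), so the numbers were not read as pairs. Over whole regions instead of the window around the midpoint, GAGAG was present at 56.9% of HIRA-free and 77.4% of HIRA-overlapped regions. Of all alternative values, 158 kept within the replicate spread or the same side of the test, 64 moved, 1 reversed and 1 was weaker. Many of the 158 could not move. Leaving out a list that a result does not use returns the main value, and the replicate block changes p and not the difference. The counts therefore do not measure how stable the results are. Without counts or heights, depth limits which weak peaks could be seen by an unknown amount.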

Other observations

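The letters CACACAC, a motif chosen after its values were seen, were present within 100 bp of the midpoint at 6.74% of HIRA-free regions, 16.5% of HIRA-overlapped regions, 6.47% of windows 2 kb to each side of the HIRA-free regions and 6.66% of windows at all TSSs. Among regions with GAF in both wild-type lists the shares were 9.15% and 19.6%, and no test was run.

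Some genes were nearest to more than 1 HIRA-free region. For 495 genes there was 1 region, for 29 there were 2, for RhoGEF3 there were 3, and for MYPT-75D and pyd there were 4 each. MYPT-75D encodes a subunit of myosin phosphatase and pyd the fly ZO-1 homologue of cell junctions. These genes were chosen after their counts were seen.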
